A study of Mus musculus with 10 samples.

Results

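Hepatic mRNA levels of 10 genes of fatty acid uptake, binding and activation were compared between mice fed chow and mice fed chow containing TM5614, an orally active inhibitor of plasminogen activator inhibitor-1 (PAI-1). The 10 genes were chosen by symbol and are Cd36, Slc27a2, Slc27a4, Fabp1, Fabp2, Fabp4, Fabp5, Acsl1, Acsl3 and Acsl5, out of 24421 genes listed. All 10 were among the 11092 genes with enough counts to be tested. Livers came from wild-type male C57BL/6 mice, given as 21 weeks old in the labels and fed ad libitum. The Chow group (n = 5) ate the diet without the drug, and the TM5614 group (n = 5) ate it with TM5614 mixed in at 20 mg/kg/day for 10 days. Each mouse gave 1 library of poly(A) RNA from a whole liver sample, so fewer cells of a type and less RNA per cell cannot be told apart. Total counts ran from 6398335 to 10874955 per library.

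Long-chain fatty acids reach the hepatocyte from plasma, where they travel bound to albumin or inside lipoproteins. CD36 and the fatty acid transport proteins of the Slc27a family help them enter, cytosolic fatty acid binding proteins (Fabp) carry them, and long-chain acyl-CoA synthetases (Acsl) join them to coenzyme A. An acyl-CoA can then be burned, desaturated or esterified into triglyceride, phospholipid or cholesteryl ester. Several of these genes are textbook targets of the fatty acid receptor PPARalpha and of other nuclear receptors in liver.

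A pair of libraries stood apart from the rest. A smooth trend in GC content and gene length accounted for 46.0% of the variance of Chow replicate 2's deviations from the mean library, against 0.763% to 11.5% in the other 9 libraries. The mean correlation of this library with the rest of its group was 0.927, against 0.965 to 0.970 for the other Chow libraries. Skeletal muscle transcripts, from a list of 10 markers, summed to 3985 CPM (counts scaled to library size) in TM5614 replicate 2 and to between 10.3 and 78.7 CPM in the other 9 libraries. Results are therefore given with and without these libraries where they moved. Hepatocyte markers were abundant in all libraries, with summed levels of 99343 to 126245 CPM for a list of 10 genes that included Alb and Apoa1. The 10 markers of Kupffer cells all had lower estimates with TM5614, with a median log2 difference of -0.43 and summed levels of 83.4 to 264 CPM with Chow and 83.2 to 178 CPM with TM5614, but 0 passed in edgeR or DESeq2 and 0 had an unadjusted p under 0.05. The 8 stellate cell markers all had higher estimates with TM5614, with a median log2 difference of 0.21, and 0 passed in edgeR or DESeq2, while 2 (Dcn and Des) had an unadjusted p under 0.05. With TM5614 the median of Des was 3.54 CPM and its highest level was 258 CPM, in replicate 2. Its log2 difference of 4.47 therefore rested on that library, the one with high skeletal muscle transcripts. The 8 markers summed to 565 CPM in TM5614 replicate 2, with those 258 CPM included, and to 167 to 354 CPM in the other libraries. Of the 10 hepatocyte markers, 5 had higher and 5 lower estimates, with a median of -0.06, and 0 passed in edgeR, where 2 (Ttr and Asgr1) had an unadjusted p under 0.05, and 1 in DESeq2. Liver endothelium markers, 10 in number, also had 5 higher and 5 lower estimates, with a median of -0.07. Of them 0 passed in edgeR or DESeq2, and 2 of the higher (Pecam1 and Tek) had an unadjusted p under 0.05. Cholangiocyte markers were tested for 3 of 6, all with higher estimates (median 0.27), and 0 passed in edgeR or DESeq2. The part of these markers in the results below was not tested. Counts of genes with an unadjusted p under 0.05, here and below, are given without the share of all genes. They cannot be set against the series as a whole.

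Promoter windows are shown for 4 of the genes, because Fabp2 rose while its relative Fabp1 did not pass the test, and because Acsl1 and Acsl3, which encode enzymes of the same reaction, were estimated in opposite directions. Each window is the stretch of 250 bases before a RefSeq transcription start (GRCm38.p6), read 5' to 3' on the strand of the gene. RefSeq gives Acsl1 more than 1 start, and the windows of its first and second listed starts are shown. Capitals mark exact matches, on either strand, to the motifs searched, which were AGGTCA (bound by nuclear receptors), a direct repeat of that element with 1 base between its copies (the arrangement of PPAR and HNF4 sites), TCACNCCAC (the core of sterol response elements), CACGTG (the palindromic E-box), GGGCGG (the GC box of Sp1), CCAAT (the site of NF-Y) and TATAAA (the TATA box). The direct repeat contains the single element and so counts for both.
Fabp2, chr3:122894822-122895071, plus strand: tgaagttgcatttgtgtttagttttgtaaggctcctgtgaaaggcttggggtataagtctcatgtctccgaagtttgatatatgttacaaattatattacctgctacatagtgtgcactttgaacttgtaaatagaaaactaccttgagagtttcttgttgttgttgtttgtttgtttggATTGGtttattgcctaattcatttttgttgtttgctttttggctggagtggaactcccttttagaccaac
Fabp1, chr6:71199629-71199878, plus strand: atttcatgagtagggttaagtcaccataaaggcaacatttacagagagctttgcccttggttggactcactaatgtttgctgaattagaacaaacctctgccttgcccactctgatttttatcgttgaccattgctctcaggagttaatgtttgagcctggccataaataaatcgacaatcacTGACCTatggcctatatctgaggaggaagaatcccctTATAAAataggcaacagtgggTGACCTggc
Acsl3, chr1:78657575-78657824, plus strand: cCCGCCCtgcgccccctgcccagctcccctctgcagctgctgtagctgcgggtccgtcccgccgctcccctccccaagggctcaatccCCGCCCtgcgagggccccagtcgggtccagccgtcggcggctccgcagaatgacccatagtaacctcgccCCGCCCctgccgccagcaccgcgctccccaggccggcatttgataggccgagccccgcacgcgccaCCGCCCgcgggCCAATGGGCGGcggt
Acsl1, first start, chr8:46470787-46471036, plus strand: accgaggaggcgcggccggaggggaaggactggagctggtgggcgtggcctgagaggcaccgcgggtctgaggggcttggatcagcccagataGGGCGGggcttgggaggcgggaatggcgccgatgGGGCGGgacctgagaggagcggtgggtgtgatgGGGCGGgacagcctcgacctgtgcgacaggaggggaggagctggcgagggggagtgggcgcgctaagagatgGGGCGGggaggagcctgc
Acsl1, second start, chr8:46490716-46490965, plus strand: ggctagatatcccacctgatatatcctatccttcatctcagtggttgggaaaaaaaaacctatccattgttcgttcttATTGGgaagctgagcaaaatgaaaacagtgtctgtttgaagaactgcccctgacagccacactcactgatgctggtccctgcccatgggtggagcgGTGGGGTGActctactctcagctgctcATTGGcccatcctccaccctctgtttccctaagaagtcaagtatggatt

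The windows of these genes differed in base composition and in the letters they held. GC content was 35.6% in the Fabp2 window, 42.8% in the Fabp1 window, 75.6% in the Acsl3 window, and 72.0% and 48.4% in the windows of Acsl1. The Fabp2 window held 1 match, a CCAAT box on the minus strand, a motif present in 33.8% of the 32851 windows of all genes. AGGTCA, present in 14% of all windows, occurred in the window of Fabp1, and also in those of Slc27a2 and Cd36. Fabp1 was the only 1 of the 8 matched members with TATAAA, which 12.4% of all windows hold. The Acsl3 window and the first Acsl1 window held GC boxes, which 32.7% of all windows hold, and the second Acsl1 window held the only TCACNCCAC of the set, a motif found in 1.05% of windows. Neither an exact copy of the direct repeat (0.0335% of all windows) nor CACGTG (6.02%) occurred in any of the 9 windows of the members. Copies of the repeat with a changed base were not searched for, and TGACCTatggcct in the Fabp1 window is such a copy. A match is a description of letters and not a bound site.

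Levels per length differed over several orders of magnitude. In FPKM (counts scaled by gene length and library, from the authors' table), the Chow medians were 4722 for Fabp1, 901 for Slc27a2 and 434 for Acsl1, the 3 most abundant members. Fabp1 encodes the main fatty acid binding protein of liver, Slc27a2 a transporter that also activates very long-chain fatty acids, and Acsl1 the main long-chain acyl-CoA synthetase of hepatocytes. Acsl5 (101), Fabp2 (76.9) and Cd36 (24.3) followed in Chow FPKM. The ranges of these first 6 genes did not overlap from 1 rank to the next. Below them the Chow ranges of neighbours overlapped, with medians of 10.7 for Fabp4, 9.51 for Slc27a4, 8.25 for Acsl3 and 1.81 FPKM for Fabp5. The order in TM5614 was the same but for 1 exchange, since Fabp2, at a median of 143 FPKM (132 to 174), lay above Acsl5, at 108 FPKM (86.0 to 116). In the Chow group the order of Fabp2 and Acsl5 was the other way round, with Fabp2 at 59.9 to 80.7 FPKM and Acsl5 at 92.5 to 110 FPKM. The exchange depends on the gene lengths used: by counts per kilobase of the GENCODE exons, Fabp2 held the fourth rank in both groups. Slc27a4 (8.47 to 11.6 FPKM) and Acsl3 (4.14 to 5.14 FPKM), neighbours in the order, did not overlap in the TM5614 group.

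**Figure D1:**
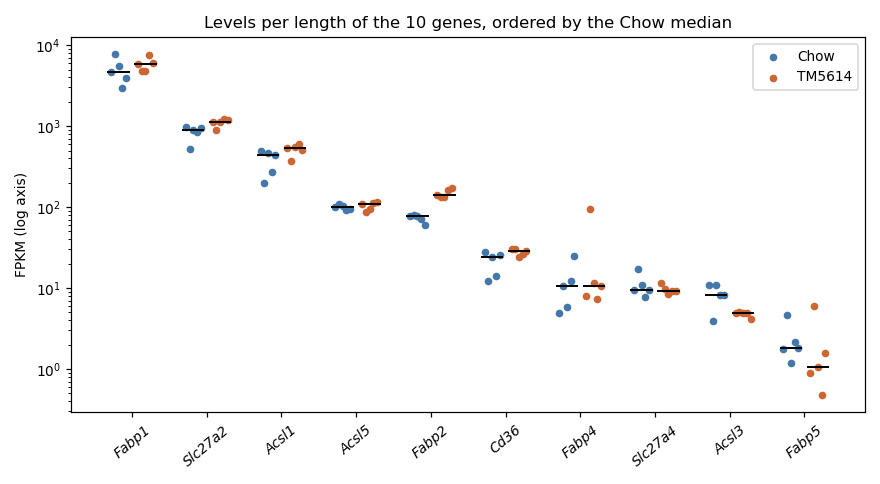
FPKM of the 10 genes in each library on a log axis, in the order of the Chow medians, with 5 Chow and 5 TM5614 libraries per gene and a line at each group median. Fabp2 is the gene whose TM5614 points all lie above its Chow points, and it passes Acsl5 in the TM5614 group.

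Of the 10 genes, 1 passed the test between the groups (edgeR, adjusted p under 0.05), and it was higher with TM5614. Among all 11092 genes tested, 4.50% passed, 1.73% higher and 2.77% lower. Estimates were higher with TM5614 for 7 of the 10 genes and lower for 3, with a median log2 fold change of 0.32, beside a median of 0.01 over all genes tested. Of all 11092 genes, 5713 had a higher estimate. The sign turned when a library was left out for Fabp4 among the higher genes, and for Fabp5 and Slc27a4 among the lower. Together the 10 genes held on average 0.641% of all CPM with Chow and 0.841% with TM5614. The CPM of 1 of the 10 did not overlap between the groups, where 8.93% of all genes tested did not overlap.

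**Figure D2:**
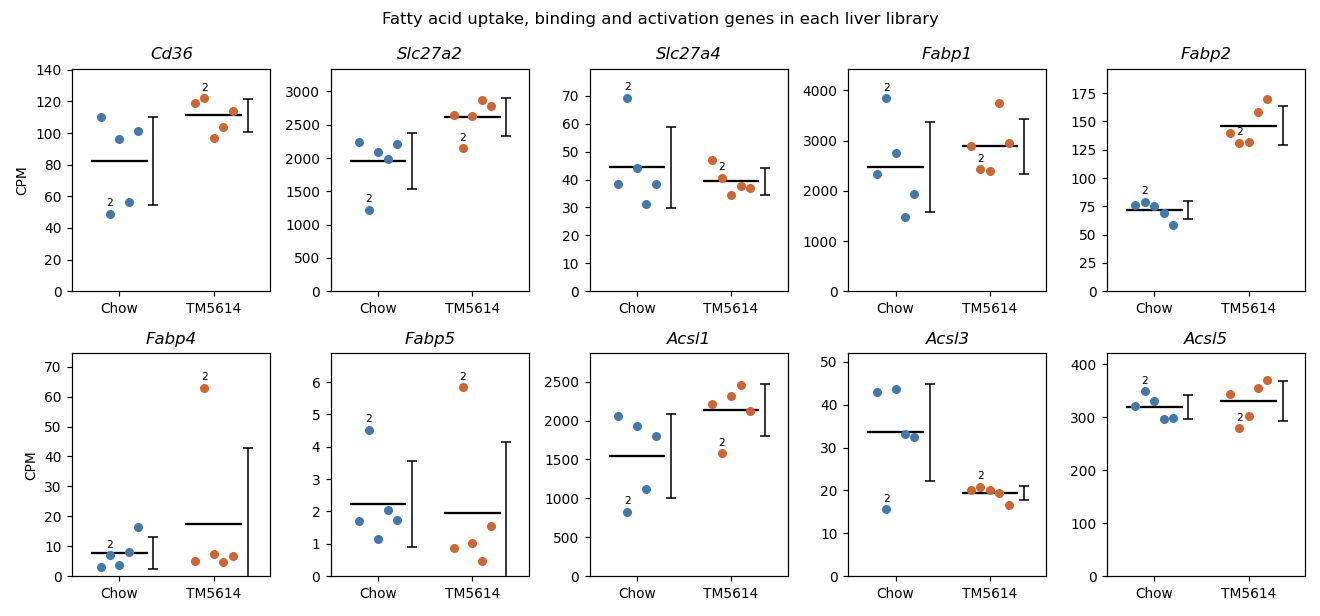
CPM of each gene in 5 Chow and 5 TM5614 libraries, on linear axes that start at 0, with the group mean as a line and the SD as a bar beside it, drawn from 0 up where it would reach below 0; replicate 2 of each group is marked. Fabp2 separates the groups, Acsl3 separates them except for Chow replicate 2, and Fabp4 and Fabp5 have a high TM5614 replicate 2.

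Of the 4 intracellular binding proteins, 1 passed the test. Fabp2, the intestinal-type fatty acid binding protein, which liver also makes at a lower level, rose with TM5614. Its gene lies at chr3:122895072-122899506 on the plus strand of GRCm38. In Chow replicates 1 to 5 its level was 76.5, 78.8, 74.9, 69.4 and 58.7 CPM. In TM5614 replicates 1 to 5 it was 140, 131, 132, 158 and 170 CPM. Every TM5614 library was above every Chow library, the nearest pair being 131 and 78.8 CPM. The means were 71.7 ± 8.03 CPM (SD, n = 5) and 146 ± 17.0 CPM (SD, n = 5), a 2.04-fold difference with a log2 fold change of 1.03 ± 0.12 (SE) and a 95% interval of 0.77 to 1.29 (edgeR, adjusted p = 0.000676). Leaving out Chow replicate 2 gave 1.06, and leaving out TM5614 replicate 2 as well gave 1.10. Defining markers of intestinal epithelium were at 0 in all 10 libraries (Lct, Sis, Alpi and Cdx2), and the list of 6 such markers summed to at most 0.626 CPM.

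Fabp1, which carries fatty acids, acyl-CoA and bilirubin in the hepatocyte, varied widely among the Chow libraries. Chow replicates 1 to 5 gave 2343, 3841, 2755, 1475 and 1945 CPM. Its TM5614 levels were 2901, 2429, 2392, 3755 and 2955 CPM. The groups overlapped, and the highest value of all was that of Chow replicate 2. On the log2 scale the difference was 0.22 ± 0.23 (SE), with a 95% interval of -0.27 to 0.72 (edgeR, adjusted p = 0.594), and it ran from 0.07 without Chow replicate 4 and 0.11 without TM5614 replicate 4 to 0.43 ± 0.18 without Chow replicate 2 (adjusted p = 0.163). A rise of the size seen for Fabp2 lay outside the first of these intervals.

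Fabp1 and Fabp2 were then compared within each library, where no scaling factor enters. The ratio of Fabp1 to Fabp2 counts ran from 21.2 to 48.7 with Chow and from 17.4 to 23.7 with TM5614. Of the 10 libraries, Chow replicate 4 was the Chow library that fell within the TM5614 range. The mean log2 ratio was 0.75 lower with TM5614 (difference -0.75, exact two-sided permutation test, p = 0.0159), which was 0.0556 after adjustment over the 7 ratios compared. When Chow replicate 5 was left out the adjusted p was 0.0370 at a difference still of -0.75. There other ratios with smaller p-values eased the adjustment. By FPKM, Fabp2 made up 1.57% ± 0.479 of the Fabp family's summed level with Chow and 2.54% ± 0.295 with TM5614 (SD, n = 5 each, exact permutation p = 0.0159, adjusted over the 9 shares compared 0.0477). Without replicate 2 of both groups the difference in this share was 0.807 percentage points (exact permutation p = 0.0571). The Slc27a2 and Acsl3 shares, given below, also had small p-values, which eased the adjustment over the 9. Fabp1 held 98.1% ± 0.633 and 96.9% ± 0.989 of the family (SD, n = 5 each, exact permutation p = 0.0397), which did not pass after adjustment over the 9 shares (0.0893).

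Fabp4, the adipocyte and macrophage binding protein, had 1 library far from the rest. Levels in the Chow libraries were 3.15, 6.94, 3.76, 7.92 and 16.4 CPM, and the TM5614 levels were 5.17, 62.9, 7.45, 4.80 and 6.88 CPM. Apart from TM5614 replicate 2, the TM5614 values lay inside the Chow range. The fitted log2 fold change was 1.17 ± 0.75 (SE, with an edgeR adjusted p = 0.395), and it turned to -0.34 without TM5614 replicate 2. Adipoq, the adipocyte hormone adiponectin, had its highest counts in the libraries where Fabp4 was highest, at 57 in TM5614 replicate 2 and 28 in Chow replicate 5, with 0 to 11 in the other 8 libraries. Cfd and Plin1, which are also adipocyte transcripts, had 72 and 14 counts in TM5614 replicate 2 and 45 and 13 in Chow replicate 5. Lipe and Adrb3, from the same list, did not follow Fabp4. Their estimates were lower with TM5614 (-0.31 and -0.26, edgeR adjusted p = 0.308 and 0.616). Their highest levels were 26.9 and 8.24 CPM with Chow, and 23.0 and 4.88 CPM with TM5614. Lep and Retn had at most 5 and 3 counts in any library. The 8 adipocyte markers summed to 29.3 to 39.1 CPM with Chow and to 46.6 to 61.1 CPM with TM5614, and most of that difference was Cidec, a lipid droplet protein that hepatocytes can also make, at 2.43 ± 0.24 (SE) on the log2 scale and an edgeR adjusted p = 0.000340. The part of these markers in the Fabp4 values was not tested.

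Fabp5, a widely expressed binding protein also found in macrophages and endothelium, was the least abundant member. The 5 Chow values were 1.70, 4.53, 1.15, 2.06 and 1.75 CPM, and the TM5614 levels were 0.862, 5.84, 1.03, 0.457 and 1.54 CPM. Replicate 2 was the highest library of each group. The estimated log2 fold change was -0.23 ± 0.60 (SE, with an edgeR adjusted p = 0.850), and it ran from -1.19 without TM5614 replicate 2 to 0.21 without Chow replicate 2, so no direction could be given. About 3.03% of the 75-base windows of its annotated transcripts are also present in the annotated genes Gm14328 and Gm6166. Part of its count is therefore uncertain, and the part of its reads affected is not known. The ratio of Fabp4 to Fabp5 counts was 1.53 to 9.15 with Chow and 4.35 to 10.7 with TM5614 (exact two-sided permutation test on log2 ratios, p = 0.0556, 0.0972 after adjustment over 7 ratios and 0.0278 without Chow replicate 5). The last value was shared with the Acsl1 to Acsl3 ratio, which eased the adjustment.

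**Figure D3:**
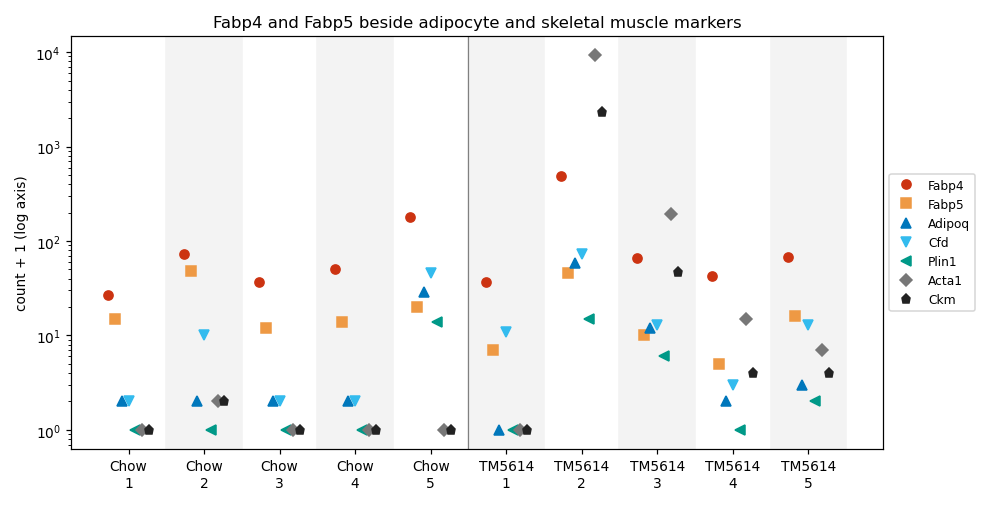
Counts plus 1 on a log axis for Fabp4, Fabp5, the adipocyte markers Adipoq, Cfd and Plin1 and the skeletal muscle markers Acta1 and Ckm in each of the 10 libraries. The other adipocyte markers of the list of 8, among them Lipe and Adrb3, are not drawn. TM5614 replicate 2 is high in all of these genes, and Chow replicate 5, the second highest library for Fabp4, is second highest for Adipoq, Cfd and Plin1.

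Of the 3 genes of uptake, 0 passed the test in edgeR or DESeq2, and 1 (Slc27a2) had an unadjusted p under 0.05 in edgeR. Cd36, a scavenger receptor that binds long-chain fatty acids at the plasma membrane, lies at chr5:17781690-17888801 on the minus strand. In the Chow group the levels were 110, 49.1, 96.5, 56.4 and 101 CPM, and the TM5614 levels were 119, 122, 97.0, 104 and 114 CPM. The TM5614 values filled a narrow range at and above the upper end of the Chow range, in which Chow replicates 2 and 4 were low. The highest Chow library was 2.25 times the lowest, against 1.26 times in the TM5614 group. The fitted log2 change was 0.43 ± 0.21 (SE), with a 95% interval of -0.03 to 0.89 (edgeR, adjusted p = 0.276), and it was 0.28 without Chow replicate 2.

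Slc27a2, also called FATP2, is the transport protein with the highest level here and lies at chr2:126552407-126588243. Chow replicates 1 to 5 gave 2239, 1219, 2093, 1983 and 2214 CPM, and the TM5614 levels were 2651, 2146, 2632, 2877 and 2788 CPM. Except for TM5614 replicate 2, which lay among the Chow values, the TM5614 libraries were above all Chow libraries. On the log2 scale the difference was 0.43 ± 0.16 (SE), with a 95% interval of 0.08 to 0.78, and did not pass after adjustment over all genes (edgeR, adjusted p = 0.166). It did pass with limma-voom and sample quality weights (0.34, adjusted p = 0.0227), a setting that called 12.5% of all genes. The difference did not pass without Chow replicate 2 alone (0.29 ± 0.10, edgeR, adjusted p = 0.0909) or with DESeq2 (0.42, adjusted p = 0.108). Without replicate 2 of both groups the estimate was 0.36 ± 0.08 (edgeR, adjusted p = 0.0130), where 11.1% of all genes were called. That last fit was added after seeing the data. The gene Gm26697 overlaps Slc27a2 on the other strand, and reads of the pair cannot be told apart if counting ignored strand.

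Slc27a4, also called FATP4, is a transporter of the endoplasmic reticulum and plasma membrane known for its role in intestine and skin. Levels in the Chow libraries were 38.4, 69.2, 44.2, 31.4 and 38.4 CPM, and the TM5614 levels were 47.1, 40.7, 34.4, 37.5 and 37.1 CPM. The TM5614 libraries lay within the Chow range, and Chow replicate 2 stood above all others. The log2 fold change of -0.17 ± 0.19 (SE, with an edgeR adjusted p = 0.624) became 0.03 without Chow replicate 2. The ratio of Slc27a2 to Slc27a4 counts was 17.6 in Chow replicate 2, 47.3 to 63.1 in the other Chow libraries and 52.6 to 76.6 in the TM5614 group. This ratio did not pass the exact two-sided permutation test (difference of 0.58 on the log2 scale, p = 0.0873, 0.122 after adjustment over 7 ratios), and without Chow replicate 2 the difference was 0.24.

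Shares within the Slc27a family were compared next. By FPKM, Slc27a2 held 60.4% ± 9.40 of the family's summed level in the Chow group, from 44.2% to 67.9%, and 72.1% ± 3.63 in the TM5614 group, from 67.0% to 75.1% (SD, n = 5 each, exact two-sided permutation test, p = 0.0159, adjusted over the 9 shares 0.0477). The difference was 11.7 percentage points with all libraries and 7.66 without Chow replicate 2. Here too the adjustment was eased by other shares with small p-values (Fabp2 and Acsl3). Nearly all of the remainder was Slc27a5, the bile acyl-CoA synthetase, at 38.4% ± 9.01 and 26.8% ± 3.51 (SD, n = 5 each). Slc27a5 is not among the 10 genes and is named because it holds this remainder, after its values were seen. Its own log2 fold change was -0.33 ± 0.12 (SE, with an edgeR adjusted p = 0.154), so neither gene passed by itself. The summed FPKM of the family was 1373 ± 108 and 1554 ± 126 (SD, n = 5 each, exact permutation p = 0.0556).

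The acyl-CoA synthetases were estimated in different directions. Acsl3 encodes a synthetase of the endoplasmic reticulum and of lipid droplets and lies at chr1:78657825-78707743 on the plus strand. The 5 Chow values were 43.1, 15.6, 43.6, 33.1 and 32.6 CPM, and the TM5614 levels were 20.0, 20.9, 20.0, 19.5 and 16.5 CPM. The 4 Chow libraries other than replicate 2 were all above every TM5614 library, and Chow replicate 2 was below all of them. The means were 33.6 ± 11.3 CPM and 19.4 ± 1.67 CPM (SD, n = 5 each), and the log2 fold change of -0.79 ± 0.23 (SE), with a 95% interval of -1.29 to -0.30, did not pass (edgeR, adjusted p = 0.0771).

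The call on Acsl3 depended on Chow replicate 2 and on the method. Without that library the mean Chow level was 38.1 ± 6.07 CPM (SD, n = 4) and the log2 fold change was -0.99 ± 0.11 (SE, with an edgeR adjusted p = 0.000307), in a fit that called 9.24% of all genes. With all 10 libraries, correcting each library for its trend in GC content and gene length gave -0.92 ± 0.16 (SE, with an edgeR adjusted p = 0.00490), with 6.46% of all genes called. DESeq2 on the same 10 libraries gave -0.80 (adjusted p = 0.0188, 8.14% of all genes called), and limma-voom with quality weights called it too (adjusted p = 0.000233). The estimate was negative in every setting run, and the smallest in size was -0.45, from the authors' regularised log2 values, which are shrunk. The gene Utp14b overlaps exons of Acsl3 on the same strand, so part of its count is uncertain.

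**Figure D4:**
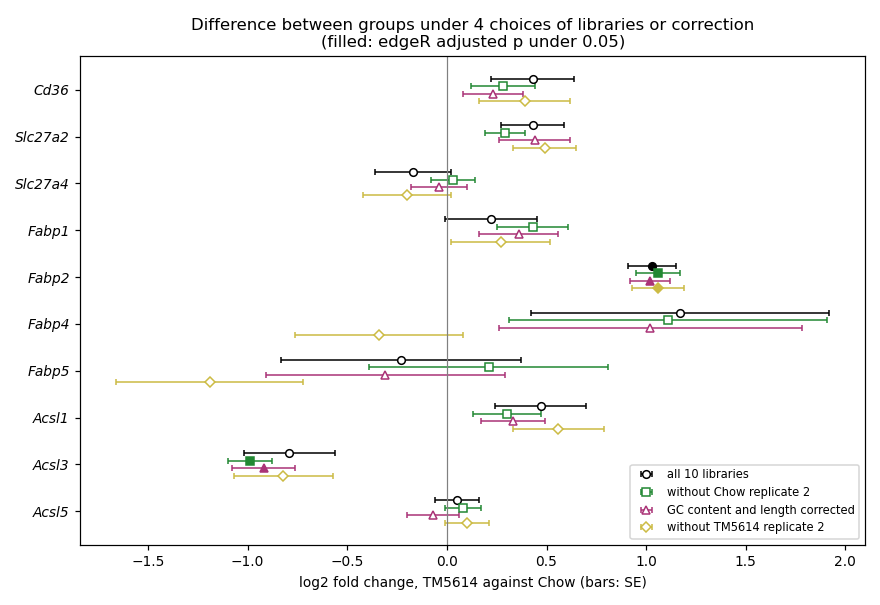
Log2 fold change of TM5614 against Chow with its SE for each gene, in edgeR fits of all 10 libraries, without Chow replicate 2, with a correction for GC content and length, and without TM5614 replicate 2; filled symbols have an adjusted p under 0.05. Fabp2 is filled in all 4 fits, Acsl3 in the fits without Chow replicate 2 and with the correction, and Fabp4 and Fabp5 shift most when TM5614 replicate 2 is left out.

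Acsl1, whose product feeds both beta-oxidation and triglyceride synthesis, lies at chr8:46471037-46536051 on the plus strand. In the Chow group the levels were 2053, 830, 1931, 1126 and 1802 CPM, and the TM5614 levels were 2219, 1578, 2313, 2454 and 2124 CPM. All TM5614 libraries other than replicate 2 were above all Chow libraries, while Chow replicates 2 and 4 were low. The estimated log2 fold change was 0.47 ± 0.23 (SE), with a 95% interval of -0.04 to 0.97 (edgeR, adjusted p = 0.282), and it was 0.30 without Chow replicate 2. The antisense gene Gm45244 shares 8.77% of the 75-base windows of Acsl1 exons, a limit on its count if strand was not used.

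Acsl5, a synthetase of mitochondria and endoplasmic reticulum, varied little among libraries, with a highest level 1.18 times the lowest in the Chow group and 1.33 times in the TM5614 group. Chow replicates 1 to 5 gave 322, 349, 330, 296 and 299 CPM, and the TM5614 levels were 345, 279, 303, 356 and 371 CPM. The groups covered nearly the same range. The fitted log2 change was 0.05 ± 0.11 (SE), and its 95% interval of -0.18 to 0.28 (edgeR, adjusted p = 0.811) did not include a change of the size estimated for Acsl3. The antisense gene Zdhhc6 shares 3.11% of the 75-base windows of Acsl5 exons, which limits the count in the same way.

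Within a library, Acsl1 and Acsl3 separated the groups without overlap. The ratio of Acsl1 to Acsl3 counts was 47.6, 53.0, 44.2, 33.9 and 55.3 in Chow replicates 1 to 5, and 111, 75.3, 116, 125 and 128 in TM5614 replicates 1 to 5. Chow replicate 2, which was low in each of these genes, had a ratio inside the range of the other Chow libraries. The mean ratio was 2.37-fold higher with TM5614, a log2 difference of 1.24 (exact two-sided permutation test, p = 0.00794, the smallest that 5 against 5 libraries allow). After adjustment over the 7 ratios this was 0.0556, so a ratio that alone reached the smallest p could not pass the threshold of 0.05. That the Acsl1 to Acsl3 ratio did not pass therefore decides nothing. Without Chow replicate 2 or without Chow replicate 5 its adjusted p was 0.0278 each (exact permutation). There a second ratio shared that value (Acsl3 to Acsl5, or Fabp4 to Fabp5), which eased the adjustment, so these are not stronger evidence. The ratio of Acsl3 to Acsl5 was 0.76 lower on the log2 scale (difference -0.76, exact permutation p = 0.0476, adjusted 0.0972, or 0.0278 without Chow replicate 2), and that of Acsl1 to Acsl5 was 0.49 higher (exact permutation p = 0.127, adjusted 0.148), or 0.25 higher without Chow replicate 2.

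**Figure D5:**
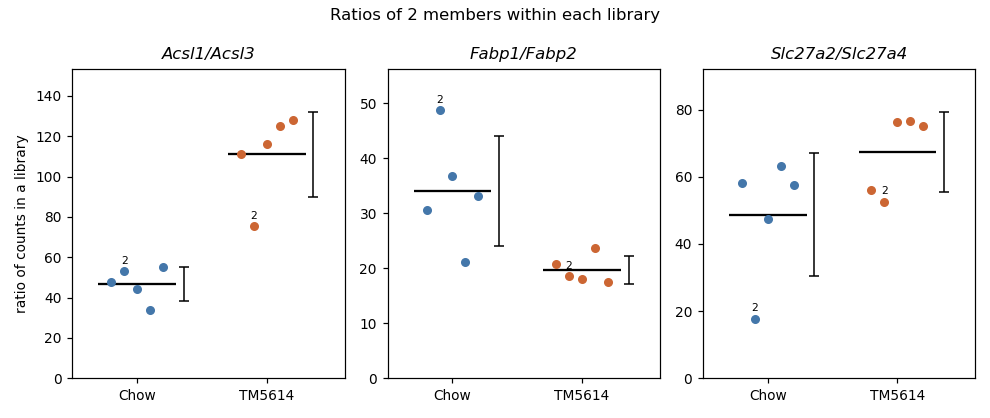
Ratios of counts of 2 genes within each library for 5 Chow and 5 TM5614 libraries, with the group mean as a line and the SD as a bar; replicate 2 of each group is marked. The Acsl1 to Acsl3 ratio does not overlap between groups (33.9 to 55.3 against 75.3 to 128), whereas the other ratios do.

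Shares of the Acsl family were compared per length by FPKM. Acsl3 made up 1.69% ± 0.353 of the family's summed level in the Chow group, from 1.23% to 2.16%, and 0.780% ± 0.174 in the TM5614 group, from 0.641% to 1.08% (SD, n = 5 each, exact two-sided permutation test, p = 0.00794, adjusted over the 9 shares 0.0477). The groups did not overlap, with Chow replicate 2 included. The Fabp2 and Slc27a2 shares had the same adjusted p, and their small p-values eased the adjustment. A share that alone reached the smallest p could not have passed over the 9, so this pass is not stronger evidence than the Acsl1 to Acsl3 ratio. Acsl1 held 74.4% ± 7.34 and 81.0% ± 1.88 (SD, n = 5 each, exact permutation p = 0.0556, which did not pass), and Acsl5 held 21.9% ± 7.72 and 16.4% ± 1.68 (SD, n = 5 each, exact permutation p = 0.151). The family's summed FPKM was 492 ± 134 and 635 ± 93.4 (SD, n = 5 each, exact permutation p = 0.103).

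How far Chow replicate 2 lay from its group differed from gene to gene. Against the mean of the other 4 Chow libraries, its log2 CPM was lower for Acsl3 (-1.26), Acsl1 (-1.02), Cd36 (-0.84) and Slc27a2 (-0.81). It was higher for Fabp5 (1.36), Fabp1 (0.89) and Slc27a4 (0.87). For Fabp2 (0.18), Acsl5 (0.17) and Fabp4 (0.13) it was close to the other Chow libraries. Fabp2, the gene called by edgeR on all 10 libraries without a correction, was among these 3.

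Genes whose pattern over the 10 libraries was most like that of Fabp2 were found among 8597 tested genes with a mean of at least 50 counts, by the root mean square difference of centred log2 CPM. The nearest was Ldha, the A subunit of lactate dehydrogenase, with a difference of 0.15 where the SD of Fabp2 itself was 0.56. Ldha ran from 540 to 664 CPM with Chow and from 1073 to 1322 CPM with TM5614. The next was Tnfaip8l1, at 0.20, with 19.6 to 32.2 CPM and 35.8 to 49.8 CPM. Their log2 fold changes were 1.00 and 0.89, beside 1.03 for Fabp2, and a likeness found this way largely repeats the difference between the groups.

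Other genes of the same and related families were mostly too low to test. Of 15 relatives (further Fabp, Slc27a and Acsl genes, and Acsbg and Scarb genes), 5 were tested and 0 passed in edgeR, where 2 had an unadjusted p under 0.05, and 1 passed in DESeq2. Slc27a1, the insulin-responsive transporter of muscle and fat, named after its values were seen, had means of 13.1 ± 2.23 CPM with Chow and 22.0 ± 7.25 CPM with TM5614 (SD, n = 5 each, log2 fold change 0.74, edgeR adjusted p = 0.0765). It passed with DESeq2, with limma-voom, with the GC content and length correction and without Chow replicate 2.

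Of 20 partners of uptake and acyl-CoA handling, 17 were tested and 3 passed in edgeR, all lower with TM5614, where 4.50% of all genes passed and 2.77% were lower. Acss2, which makes acetyl-CoA from acetate in the cytosol, went from a mean of 133 ± 9.64 CPM to 71.8 ± 8.45 CPM (SD, n = 5 each), with a log2 fold change of -0.89 and an edgeR adjusted p = 0.000889. Acsm5 (-0.56, adjusted p = 0.0124) and Acsm1 (-0.57, adjusted p = 0.0339), mitochondrial synthetases of medium-chain acyl-CoA, were also lower by edgeR. Of the 10 fits that left out 1 library, Acsm1 lost the call in 8 and Acsm5 in 0, and Acsm1 also lost it with the replicate block and with no filter. The median log2 fold change of the list was -0.04.

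Of 20 lipid-sensing transcription factors and coactivators, all were tested and 4 passed in edgeR, again lower with TM5614, with a list median of -0.29, beside the same 4.50% and 2.77% of all genes. Srebf1, the regulator of fatty acid synthesis, had a log2 fold change of -1.84 ± 0.19 (SE, with an edgeR adjusted p = 0.000402), and Srebf2, the regulator of cholesterol synthesis, a value of -1.03 ± 0.17 (SE, adjusted p = 0.00471). Rxra, the partner of PPARalpha on DNA, was at -0.38 and Ppargc1b, a coactivator, at -0.83 (edgeR, adjusted p = 0.0417 each). Of the 10 fits that left out 1 library, however, Rxra lost the call in 9 and Ppargc1b in 7. Both also lost it with no filter. Rxra lost it too with the replicate block, with library totals alone and with the GC content and length correction. Ppara itself, given here for its place in the pathway, had a log2 fold change of -0.03 with a 95% interval of -0.33 to 0.27 (edgeR, adjusted p = 0.922).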

How the data were processed

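Livers of 10 mice were sequenced, 5 per group, with group and replicate number read from the titles. According to the methods, STAR aligned the reads to mm10 and reads were counted per gene. The annotation, the versions and the use of strand are not given in the sources used here. The submitters' processing notes also name HOMER and DESeq2. The counts the authors deposited are whole numbers, 1 row per symbol, without normalization. The authors deposited FPKM, counts scaled by gene length and library, whose library divisors equalled DESeq2 size factors when checked against the counts, and regularised log2 values from DESeq2. A deposited table of their own comparison (fold changes and p-values) was not used. Columns were matched to samples by mouse number.

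Differences were tested with edgeR 4.0.16 in R 4.3.3 (filterByExpr, TMM, glmQLFit and glmQLFTest, two-sided, no block), with p-values adjusted by Benjamini-Hochberg over 11092 genes and called under 0.05. CPM use TMM-scaled library sizes, and log2 CPM a prior count of 2. Ratios had 0.5 added to each count for the log2 scale. Ratios and shares, single values per library, were compared with exact two-sided permutation tests. Among the 20 pairs of libraries within a group chi-square per degree of freedom was at least 8.00, and none was a repeat deposit. Separate mice were taken from the mouse numbers, and the labels give no batch. A difference in total count between groups was not detected (exact permutation p = 0.325).

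Loci came from GENCODE M21 on GRCm38, matched by symbol, and promoter sequences from RefSeq on GRCm38.p6, with 8 of the 10 genes matched (not Fabp4 or Fabp5). GC content was had for 96.7% of tested genes. The alternatives were DESeq2 1.42.0, limma-voom with quality weights (limma 3.58.1), upper-quartile or RLE factors, library totals alone, a filter of at least 10 counts in every library or none, robust dispersion, a replicate block, a GC content and length correction by splines with 5 degrees of freedom, an adjusted p of 0.01, limma on log2(FPKM + 1), log2(FPKM + 0.1) and the regularised values, and each library left out; leaving out replicate 2 of both groups together was added after seeing the data. Scripts were tested on simulated data first. The 10 genes and all lists were chosen with earlier results of these data known. All 10 genes are named; other list genes are named where they passed the edgeR test, as are the 2 genes most like a member that passed. Slc27a1, Slc27a5, Ppara and the cell type markers named fall outside that rule and were chosen after their values were seen.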

Additional observations from a re-analysis of the deposited data

Results flagged for a closer look

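A library far from the 4 others of its group was found for 10 of the 54 groups of 5 tested (27 measures in 2 groups), where chance gives about 2.70. Measures that share a gene or a library are not independent, so the comparison with chance decides nothing. Chow replicate 2 accounted for 6 of the 10. Slc27a2 was 1219 CPM there against 1983 to 2239 in the other Chow libraries, Fabp5 was 4.53 CPM against 1.15 to 2.06, and Acsm1 was 450 CPM against 309 to 321. The log2 ratios in the same library were -4.48 for Acsl3 to Acsl5 (others -3.20 to -2.90), 4.14 for Slc27a2 to Slc27a4 (others 5.57 to 5.98) and -6.29 for Cd36 to Fabp1 (others -4.83 to -4.27). TM5614 replicate 2 accounted for the other 4. Fabp4 was 62.9 CPM there against 4.80 to 7.45 in the other TM5614 libraries, Fabp5 was 5.84 CPM against 0.457 to 1.54, and Acsm5 was 76.0 CPM against 84.8 to 88.1. The log2 ratio of Acsl1 to Acsl3 was 6.23 there against at least 6.79 in the others, which was still above every Chow library.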

How the results depend on the processing

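The rise of Fabp2 passed in every setting run, with log2 fold changes of 0.69 to 1.08 over 13 settings and 0.96 to 1.06 when 1 library was left out. Scaling choices moved the median of all genes to at most 0.06 on the log2 scale. The other members kept their side of the threshold except Acsl3 and Slc27a2, as given above, and Fabp4, Fabp5 and Slc27a4 changed sign when a library was left out, and Acsl5 with the GC content and length correction (-0.07), without passing. Members called numbered 2 with DESeq2, 3 with limma-voom, 2 with the GC content and length correction, 1 to 2 when 1 library was left out (2 without Chow replicate 2) and 3 without replicate 2 of both groups. With the replicate block, 1 member (Fabp2) and 555 of all genes passed, and Acsm1 and Rxra lost their calls; deviations of same-numbered libraries correlated by 0.03 to 0.32, over 0.1 in 3 of 5 pairs, so the numbers were not taken to pair the mice. Over all genes the 499 calls became 900 with DESeq2, 1386 with limma-voom, 184 at an adjusted p of 0.01 and 1230 without replicate 2 of both groups. Leaving out 1 library gave 235 to 1031 calls (1031 without Chow replicate 2, 293 without Chow replicate 3, 331, 235 and 259 without TM5614 replicates 1, 3 and 4). Family relatives called were 1 with DESeq2, limma-voom, the GC content and length correction and without replicate 2 of both groups, and 0 to 1 when 1 library was left out. Partners called were 1 at an adjusted p of 0.01 and 2 to 4 when 1 library was left out, and transcription factors called were 6 with DESeq2, 6 with limma-voom, 2 with no filter, 2 at 0.01 and 2 to 4 when 1 library was left out.

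Leaving out 1 library, the log2 ratio differences ran from 1.13 to 1.38 for Acsl1 to Acsl3, -1.04 to -0.65 for Acsl3 to Acsl5, -0.91 to -0.61 for Fabp1 to Fabp2, 0.90 to 1.55 for Fabp4 to Fabp5, 0.25 to 0.61 for Acsl1 to Acsl5, 0.24 to 0.70 for Slc27a2 to Slc27a4 and -0.13 (without Chow replicate 2) to 0.38 for Cd36 to Fabp1. The share differences, in percentage points, ran from 3.74 to 8.02 for Acsl1, -6.88 to -2.33 for Acsl5, -1.45 to -0.806 for Fabp1 (whose unadjusted exact permutation p was above 0.05 in 7 of the 10), 0.828 to 1.15 for Fabp2 and -0.0295 to -0.00151 for Fabp5. By counts per kilobase of reference exons the Acsl1 share difference was 8.23, and 5 of the 10 members kept their Chow rank. Without replicate 2 of both groups the share differences were -0.635 for Fabp1 and 0.807 for Fabp2, and the log2 ratio differences were 1.43 for Acsl1 to Acsl3, -1.13 for Acsl3 to Acsl5, -0.59 for Fabp1 to Fabp2 and 0.75 for Fabp4 to Fabp5. Fabp5 could not be fitted at 10 counts in every library. The causes of these shifts were not tested. Counting error limits Fabp5, Adipoq, Plin1 and Cfd, which had few counts.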
